A study of Mus musculus with 3 samples.

Results

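The genes described here encode the enzymes that load amino acids onto transfer RNAs (the cytosolic aminoacyl-tRNA synthetases) and enzymes that make amino acids and folate-bound carbon units. They were taken from a fixed list of 34 gene symbols, and each is represented by its brightest named probe set. Of the 34, 31 had a named probe set among the 19505 genes named on the array. Aars, Dars and Pycr1 had no named probe set in the annotation used here and were not measured. The methionine enzyme Mars is listed there under its newer symbol Mars1. The cells were mouse CD8 T cells activated by CD3 and CD28 stimulation and cultured under a Tc1 cytokine condition, which drives CD8 T cells toward cytotoxic effectors. There were 3 groups, the control with no added cholesterol, cells with cholesterol at 0.5 µg/ml and cells with cholesterol at 0.75 µg/ml, and each had 1 array. The labels give no strain, age, number of animals or cultures, length of treatment or solvent, and effects of a solvent and of cholesterol cannot be told apart.

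Each aminoacyl-tRNA synthetase joins an amino acid to its matching transfer RNA, which the ribosome then uses. An uncharged transfer RNA signals amino acid shortage through the kinase GCN2 (gene Eif2ak4), and the transcription factor ATF4 then switches on many synthetase genes together with Asns and the serine synthesis genes. Serine in turn feeds the folate cycle, which supplies carbon units for purines and thymidylate, and activated T cells are known to raise the mitochondrial branch of that cycle as they start to divide.

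With 1 array per condition no difference below has a replicate check, no test was possible, and the precision is set by having 3 arrays. A difference is the log2 of one array's intensity over the other's. The background level, 102, is the highest of the 3 arrays' 95th percentiles of the negative-control probe sets, and 28 of the 31 measured members lay above it on every array. Cth, Cbs and Gpt2 lay under it on every array. They are described by their intensities, although their differences enter the counts, medians and ranges over all measured members. Member differences were set beside those of all 7656 genes with a mean level above background. The middle 95% of those genes ran from -0.35 to 0.34 at 0.5 µg/ml against the control, from -0.77 to 0.50 at 0.75 µg/ml against the control, and from -0.67 to 0.45 between the doses. The 993 positive-control probe sets above background had a middle 95% from -0.48 to 0.52 at 0.5 µg/ml and from -0.52 to 0.57 at 0.75 µg/ml. All 6 measured T cell and CD8 markers were bright, between 1269 and 8136. Of 16 measured markers of other cell types 15 were under background on every array (all but Cd79b), and the 16 markers' summed intensity was 449 in the control, 391 with 0.5 µg/ml and 409 with 0.75 µg/ml. In a bulk RNA sample fewer cells of a type and less RNA per cell cannot be told apart.

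No measured member differed 2-fold in any of the 3 comparisons, whereas 15 of 15 measured sterol synthesis genes were at least 2-fold lower at 0.75 µg/ml than in the control by their deposited intensities. That sterol list counts the regulator gene Insig1 beside the enzymes. Most members were slightly above the control at 0.5 µg/ml. Of the 31, 24 were above and 7 below, with a median difference of 0.16 (quartiles 0.03 and 0.28), while 53.6% of all genes above background were above the control with a median of 0.01. At 0.75 µg/ml 21 members were above and 10 below the control, with a median of 0.10 (quartiles -0.03 and 0.22), against 50.5% of all genes above background, whose median was 0.00. Of the 28 members above background alone, 22 were above the control at 0.5 µg/ml (78.6%, median 0.15) and 19 at 0.75 µg/ml (67.9%, median 0.10). The share of all genes above background that differed at least 2-fold was 0.0392% at 0.5 µg/ml and 1.59% at 0.75 µg/ml against the control, and 1.35% between the doses, so a count of 0 members is near the background in each.

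The 0.5 µg/ml array was the highest of the 3 for 14 of the 28 members above background, against 31.0% of all genes above background. The 0.75 µg/ml array was the highest for 11 of them (39.3%, against 37.6%), and the control array for 3 (10.7%, against 31.5%). This order rests on 1 array per condition.

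**Figure D1:**
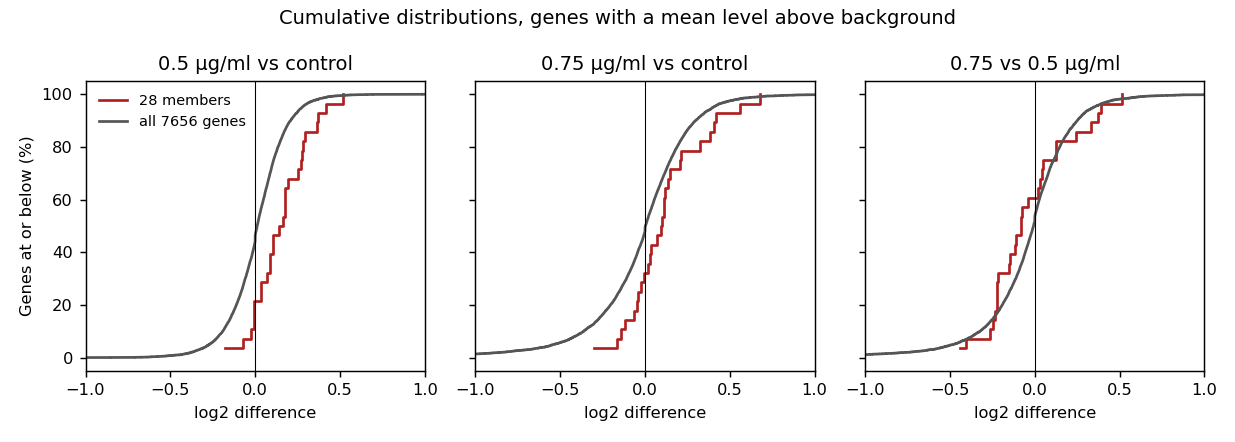
Cumulative share of genes in percent (vertical axis) at or below each log2 difference (horizontal axis, from -1 to 1) for the 28 members (red) and all 7656 genes (grey) with a mean level above background, in the 3 comparisons. The members' curve lies right of the grey one at 0.5 µg/ml against the control, less so at 0.75 µg/ml, and crosses it between the doses.

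Promoter windows from RefSeq (build GRCm38.p6), each reaching from 250 bases before an annotated transcript start to 50 bases after it, were in the table for 26 of the 34 listed genes, with 27 windows in all. For 17 of the 26 a window's start is the gene's outermost annotated start, and for the other 9 it lies 17 to 8407 bases further into the gene, so the bases before the outermost start were not searched in full for those. The 8-letter core of the C/EBP-ATF response element, the kind of site that ATF4 is known to use, was searched on both strands as TGATGNAA (TTNCATCA on the other strand). It was found for 7 of the 26 genes (26.9%), namely Aars, Gars, Iars, Tars, Yars, Asns and Pycr1, against 4.51% of all 27025 genes and 3.97% of all 32851 windows in the table. The stricter form TGATGNAAT, which contains the core, was found for 4 of the 26 (15.4%, against 1.08% of all genes), namely Aars, Gars, Iars and Pycr1, and so not for Asns, Yars or Tars. The E-box CACGTG was found for 6 of the 26 (23.1%; Aars, Farsb, Iars, Tars, Aldh18a1 and Cbs), for 4 of 12 sterol synthesis genes (33.3%, the regulator Insig1 among them) and for 8.09% of all genes. The sterol regulatory element TCACNCCAC was found for 0 of the 26, for 1 of 12 sterol synthesis genes (Hmgcs1) and for 1.44% of all genes. In 0 member windows did the 8-letter core overlap an E-box or a sterol element. A match is a stretch of letters and not a measured site.

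The 5 windows below, 5′ to 3′ on each gene's strand with the core in capitals, are shown because of the genes' levels: Asns, Yars and Tars had 3 of the 4 highest differences at 0.5 µg/ml among members above background, Gars holds the core with near-equal intensities on all 3 arrays, and Mthfd1 had the highest difference at 0.75 µg/ml. The Asns window is chr6:7693160-7693459 on the minus strand, with the core beginning 23 bases before the transcript start. The Yars window is chr4:129189653-129189952 on the plus strand, with the core from base 4 of the transcript, and its start lies 169 bases inside the outermost one. The Tars window is chr15:11399609-11399908 on the minus strand, with the core beginning 15 bases before the start. The Gars window is chr6:55037751-55038050 on the plus strand, with the core beginning 30 bases before the start. The Mthfd1 window, chr12:76254982-76255281 on the plus strand, has no match to the core in its letters. Its start lies 826 bases inside the outermost annotated start of Mthfd1, and the bases before that start were not searched.
Asns: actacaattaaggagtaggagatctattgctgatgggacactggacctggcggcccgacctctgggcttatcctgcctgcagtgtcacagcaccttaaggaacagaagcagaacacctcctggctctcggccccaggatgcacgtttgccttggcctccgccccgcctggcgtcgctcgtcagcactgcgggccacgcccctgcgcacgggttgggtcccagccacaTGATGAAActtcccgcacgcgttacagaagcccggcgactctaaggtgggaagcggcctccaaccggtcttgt
Yars: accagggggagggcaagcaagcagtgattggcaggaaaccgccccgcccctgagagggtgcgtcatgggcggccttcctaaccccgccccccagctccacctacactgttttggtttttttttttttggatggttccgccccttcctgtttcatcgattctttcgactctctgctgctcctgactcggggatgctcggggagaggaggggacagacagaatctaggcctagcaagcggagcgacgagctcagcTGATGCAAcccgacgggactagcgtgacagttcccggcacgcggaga
Tars: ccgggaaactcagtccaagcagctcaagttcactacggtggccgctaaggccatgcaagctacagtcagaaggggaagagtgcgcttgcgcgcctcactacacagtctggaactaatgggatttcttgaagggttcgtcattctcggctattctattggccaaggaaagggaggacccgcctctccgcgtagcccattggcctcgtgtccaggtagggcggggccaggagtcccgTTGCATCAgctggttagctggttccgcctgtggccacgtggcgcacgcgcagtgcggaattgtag
Gars: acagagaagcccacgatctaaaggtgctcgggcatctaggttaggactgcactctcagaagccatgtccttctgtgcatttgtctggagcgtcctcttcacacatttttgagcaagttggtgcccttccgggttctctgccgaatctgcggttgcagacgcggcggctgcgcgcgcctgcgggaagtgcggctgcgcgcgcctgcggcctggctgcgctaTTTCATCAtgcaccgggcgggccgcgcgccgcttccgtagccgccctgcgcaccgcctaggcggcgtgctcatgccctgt
Mthfd1: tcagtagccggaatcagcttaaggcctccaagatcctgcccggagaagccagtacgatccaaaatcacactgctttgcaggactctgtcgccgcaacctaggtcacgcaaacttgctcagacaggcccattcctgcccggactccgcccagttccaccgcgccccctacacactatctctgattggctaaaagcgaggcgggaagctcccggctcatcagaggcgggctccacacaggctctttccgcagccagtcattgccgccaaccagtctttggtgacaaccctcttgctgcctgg
Among the measured members, the 5 with the core (Gars, Iars, Tars, Yars and Asns) had differences from -0.01 to 0.52 at 0.5 µg/ml, with a median of 0.37. The 18 with a window and no match ranged from -0.02 to 0.73 with a median of 0.12, and the 8 without a window in the table from -0.18 to 0.47 with a median of 0.23. The 0.73 belongs to Gpt2 and the 0.47 to Cth, both under background on every array. Below them, the highest in those groups were Mthfd2 (0.28) and Cars (0.41), and with or without the dim genes the 3 ranges overlap. The stricter form leaves Gars (-0.01) and Iars (0.10) as the measured members with a match. At 0.75 µg/ml against the control the medians of the groups of 5, 18 and 8 were close together, at 0.11, 0.10 and 0.10. Between the doses they were -0.11, -0.08 and -0.10.

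At 0.5 µg/ml against the control, most synthetase genes were slightly above the control. Among the 18 measured synthetase genes, 13 were above and 5 below the control, with a median of 0.10 and a range from -0.18 to 0.41. The enzymes for cysteine (Cars), tyrosine (Yars) and threonine (Tars) were the highest. Cars was at 294 in the control, 392 with 0.5 µg/ml and 289 with 0.75 µg/ml. Its difference at 0.5 µg/ml, 0.41, was higher than in 98.8% of all genes above background. Yars was at 970.5 in the control, 1255 with 0.5 µg/ml and 1074 with 0.75 µg/ml, a difference of 0.37 at the lower dose. For Cars and Yars the 0.5 µg/ml array stood above the other arrays, and for Cars the remaining pair were nearly level. Tars was at 590.4 in the control, 761 with 0.5 µg/ml and 788 with 0.75 µg/ml, so both cholesterol arrays were above the control, with differences of 0.37 and 0.42.

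The asparagine and leucine enzymes followed in size. Nars was at 442 in the control, 541 with 0.5 µg/ml and 464 with 0.75 µg/ml, and Lars at 284 in the control, 345 with 0.5 µg/ml and 312 with 0.75 µg/ml. Both were highest at 0.5 µg/ml. The bifunctional glutamate and proline enzyme Eprs was at 2191 in the control, 2500.2 with 0.5 µg/ml and 2365 with 0.75 µg/ml, and the arginine enzyme Rars at 674 in the control, 761 with 0.5 µg/ml and 779 with 0.75 µg/ml, each with both cholesterol arrays above the control. Differences for Eprs and Rars at 0.5 µg/ml were 0.19 and 0.18.

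The other synthetases above the control at 0.5 µg/ml differed by 0.14 or less. They were the enzymes for isoleucine (Iars, 0.10), serine (Sars, 0.10), glutamine (Qars, 0.08) and methionine (Mars, 0.03), and the alpha and beta subunits of the phenylalanine enzyme (Farsa, 0.14, and Farsb, 0.09). The 5 others were below the control, of which the glycine (Gars), histidine (Hars) and lysine (Kars) enzymes were within 0.03 of it. The valine enzyme Vars was at 871 in the control, 769 with 0.5 µg/ml and 709 with 0.75 µg/ml, the lowest synthetase difference at either dose (-0.18 and -0.30).

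**Figure D2:**
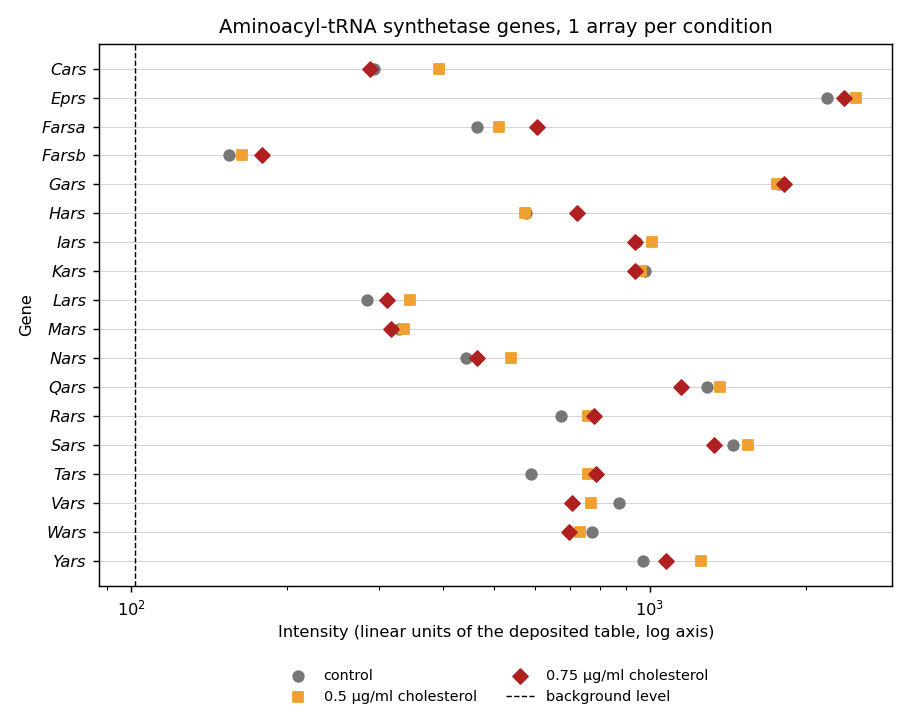
Intensity (horizontal log axis, linear units of the deposited table) of the 18 measured synthetase genes on the control array (grey circles), the 0.5 µg/ml array (orange squares) and the 0.75 µg/ml array (red diamonds), with the background level of 102 as a dashed line. Orange squares stand apart to the right for Cars, Nars and Yars, red diamonds for Farsa and Hars, and the grey circle is rightmost for Vars and Wars; levels of different genes come from different probes and are not comparable.

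Among the enzymes that make amino acids, Asns, which makes asparagine from aspartate and glutamine, had the highest difference of the members above background at 0.5 µg/ml. It was at 1106 in the control, 1585 with 0.5 µg/ml and 1195 with 0.75 µg/ml. The 0.5 µg/ml value was 1.43-fold the control, a difference of 0.52 that was higher than in 99.5% of all genes above background and about at the upper end of the positive controls' middle 95%. The 0.75 µg/ml array lay close to the control, with a difference of 0.11. At 0.5 µg/ml 4 of the 28 members above background (Asns, Cars, Yars and Tars) exceeded the 97.5th percentile of all genes above background and 0 lay below the 2.5th percentile, a pair of limits that 2.51% of those genes pass on each side. Cars (0.41), Yars (0.37) and Tars (0.37) were within the positive controls' middle 95%, from -0.48 to 0.52.

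The 3 enzymes of serine synthesis work in sequence from a glycolytic intermediate, and they differed in pattern. Phgdh, the first step, was at 877 in the control, 898 with 0.5 µg/ml and 1164 with 0.75 µg/ml, so only the higher dose stood apart, by 0.41 from the control and 0.37 from the lower dose. Psat1, the second step, was at 1455 in the control, 1733 with 0.5 µg/ml and 1559 with 0.75 µg/ml, highest at the lower dose with a difference of 0.25. Psph, the last step, was at 283 in the control, 298 with 0.5 µg/ml and 302 with 0.75 µg/ml, within 0.09 of the control at both doses.

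The folate enzymes were read by compartment. The cytosolic enzymes Mthfd1, which interconverts folate-bound carbon units, and Shmt1, which moves a carbon between serine and glycine, were highest at 0.75 µg/ml. Mthfd1 was at 291 in the control, 325 with 0.5 µg/ml and 464 with 0.75 µg/ml, and was the only measured member above background with a 1.5-fold difference, which 1.46% of all genes above background had in that direction at 0.75 µg/ml. At 0.75 µg/ml Mthfd1 was 1.60-fold the control (0.68), higher than in 99.1% of all genes above background, and 1.43-fold the lower dose (0.52). Shmt1 was at 240 in the control, 271 with 0.5 µg/ml and 354 with 0.75 µg/ml, with a difference of 0.56 from the control at the higher dose, just under the 97.5th percentile of the positive controls. Shmt1 and Mthfd1 were the 2 of 28 members above the 97.5th percentile of genes at that dose, and 0 lay below the 2.5th.

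The mitochondrial enzymes of the same cycle were near the control at 0.75 µg/ml. Mthfd2, the dehydrogenase that T cells induce on activation, was at 835 in the control, 1013 with 0.5 µg/ml and 845 with 0.75 µg/ml. Mthfd1l, which releases formate, was at 750.1 in the control, 906 with 0.5 µg/ml and 770 with 0.75 µg/ml, so both were highest at the lower dose (0.28 and 0.27) and within 0.04 of the control at the higher. Shmt2, the mitochondrial counterpart of Shmt1, was at 1320 in the control, 1313 with 0.5 µg/ml and 1431 with 0.75 µg/ml. Across the higher dose and the control, the cytosolic pair differed by 0.56 and 0.68 and the mitochondrial trio by 0.02 to 0.12, and the difference between the compartments was not tested. The contrast covers these 5 genes only, and Gcsh, a further mitochondrial gene of one-carbon metabolism, differed by 0.51 at the higher dose.

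**Figure D3:**
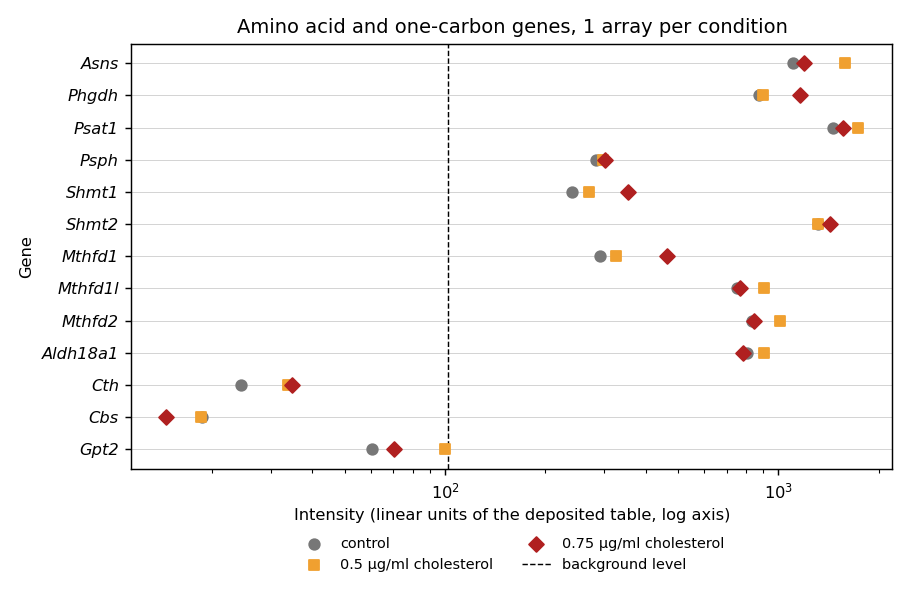
Intensity (horizontal log axis, linear units of the deposited table) of the 13 measured amino acid and folate enzyme genes on the control array (grey circles), the 0.5 µg/ml array (orange squares) and the 0.75 µg/ml array (red diamonds); the dashed line is the background level of 102. Asns, Mthfd1l and Mthfd2 have the orange square to the right, Phgdh, Shmt1 and Mthfd1 the red diamond, and Cth, Cbs and Gpt2 lie left of the line on every array.

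Of the listed members of the proline branch only Aldh18a1, the first committed enzyme, was measured. It was at 804 in the control, 907 with 0.5 µg/ml and 782 with 0.75 µg/ml, or 0.17 and -0.04 from the control. The genes of the transsulfuration route, which makes cysteine from homocysteine, were dim throughout: Cth was at 24.5 in the control, 33.8 with 0.5 µg/ml and 34.8 with 0.75 µg/ml, and Cbs at 18.7 in the control, 18.5 with 0.5 µg/ml and 14.5 with 0.75 µg/ml. Gpt2, which makes alanine in mitochondria, was at 60.4 in the control, 100.02 with 0.5 µg/ml and 70.4 with 0.75 µg/ml, highest at the lower dose but under background on every array. Gpt2 was the only measured member with a 1.5-fold difference at 0.5 µg/ml, where 1.93% of all 19505 genes were at least 1.5-fold higher.

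The second comparison set 0.75 µg/ml cholesterol against the control. Here the synthetases lay on both sides, 10 above and 8 below, with a median of 0.05. Tars (0.42), Farsa (0.38) and Hars (0.32) were the highest. Farsa was at 464 in the control, 511 with 0.5 µg/ml and 605 with 0.75 µg/ml, and Farsb, the other subunit of the same enzyme, at 154 in the control, 164 with 0.5 µg/ml and 179 with 0.75 µg/ml, so both subunits were ordered by dose. Hars was at 577 in the control, 574 with 0.5 µg/ml and 723 with 0.75 µg/ml, where only the higher dose stood apart. Synthetase differences at this dose stayed within the middle 95% of all genes above background in 18 of 18 cases.

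Vars (-0.30), Qars (-0.16), Wars (-0.14) and Sars (-0.12) were the lowest synthetases at 0.75 µg/ml. Qars was at 1288 in the control, 1366 with 0.5 µg/ml and 1150.3 with 0.75 µg/ml, and Sars at 1443 in the control, 1549 with 0.5 µg/ml and 1328 with 0.75 µg/ml, each highest at the lower dose and lowest at the higher. The tryptophan enzyme Wars, which interferon-gamma induces, was at 772 in the control, 735 with 0.5 µg/ml and 699 with 0.75 µg/ml. The 5 most different interferon-inducible genes were all below the control at the higher dose. Stat2 (-1.58), Gbp2 (-0.88) and Irf1 (-0.70) were above background on every array. With 0.75 µg/ml Irf7 and Ifit3 were under background. With the dim value raised to the background level, Irf7 was at least 4.98-fold lower than in the control, and for Ifit3 the same bound was 2.38-fold. Of the 11 measured members of that list, Wars included, 10 were below the control and 1 above it (0.03), with a median of -0.60. Among all genes above background 47.8% were below the control. Sizes within the list were uneven, with quartiles of -1.23 and -0.26, and a link between Wars and the others was not tested. Of the remaining synthetases, Rars (0.21), Yars (0.15), Lars (0.13), Eprs (0.11) and Nars (0.07) were above the control at 0.75 µg/ml and Cars (-0.03) was close to it. The last 4 also lay close to the control at that dose, from -0.06 for Kars to 0.03 for Gars. Gars was at 1773 in the control, 1762 with 0.5 µg/ml and 1811 with 0.75 µg/ml, and Kars at 980 in the control, 963 with 0.5 µg/ml and 937 with 0.75 µg/ml. Iars was at 941 in the control, 1011 with 0.5 µg/ml and 937 with 0.75 µg/ml, and Mars at 329 in the control, 336 with 0.5 µg/ml and 317 with 0.75 µg/ml. For Iars and Mars the lower dose was the highest array and the higher dose the lowest.

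Synthetases fall into structural classes I and II, and 7 of the measured enzymes sit with the scaffold proteins Aimp1, Aimp2 and Eef1e1 in a multisynthetase complex. At 0.75 against 0.5 µg/ml, 9 of 10 class I genes were lower, with a median of -0.11, and 3 of 8 class II genes were lower, with a median of 0.05, while 51.7% of all genes above background were lower. The ranges of the classes overlapped, from -0.44 to 0.03 in class I and from -0.22 to 0.33 in class II. The bifunctional Eprs was counted in class I only. Against the control, 8 of 10 class I and 5 of 8 class II genes were higher at 0.5 µg/ml (53.6% of all genes above background). At 0.75 µg/ml 4 and 6 were higher than the control (50.5% of all genes above background). Of the 7 complex enzymes, 6 were above the control at 0.5 µg/ml (median 0.10, beside 53.6% of all genes above background) and 3 at 0.75 µg/ml (median -0.01, beside 50.5%), the second a share near that of all genes. The scaffold genes did not share a direction at 0.75 µg/ml against the control, with Aimp1 at 295 against 372, Aimp2 at 977 against 802 and Eef1e1 at 1904 against 1742.

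The third comparison set the higher dose against the lower one. Of the 31 members, 12 were higher and 19 lower at 0.75 than at 0.5 µg/ml, with a median of -0.08, against 46.3% of all genes above background that were higher. Among the 28 members above background 11 were higher (39.3%) and 17 lower, with a median of -0.08. Mthfd1 (0.52), Shmt1 (0.39), Phgdh (0.37) and Hars (0.33) were the highest members. Cars (-0.44), Asns (-0.41) and Mthfd2 (-0.26) were the lowest of those above background. Only Mthfd1 of the measured members lay outside the middle 95% of all genes above background, limits that 2.51% of those genes pass on each side. The Mthfd1 difference, 0.515, was inside the positive controls' middle 95% between the doses, from -0.482 to 0.525. The comparisons share arrays, so a high or low value on the 0.5 µg/ml array moves its differences from both of the others.

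**Figure D4:**
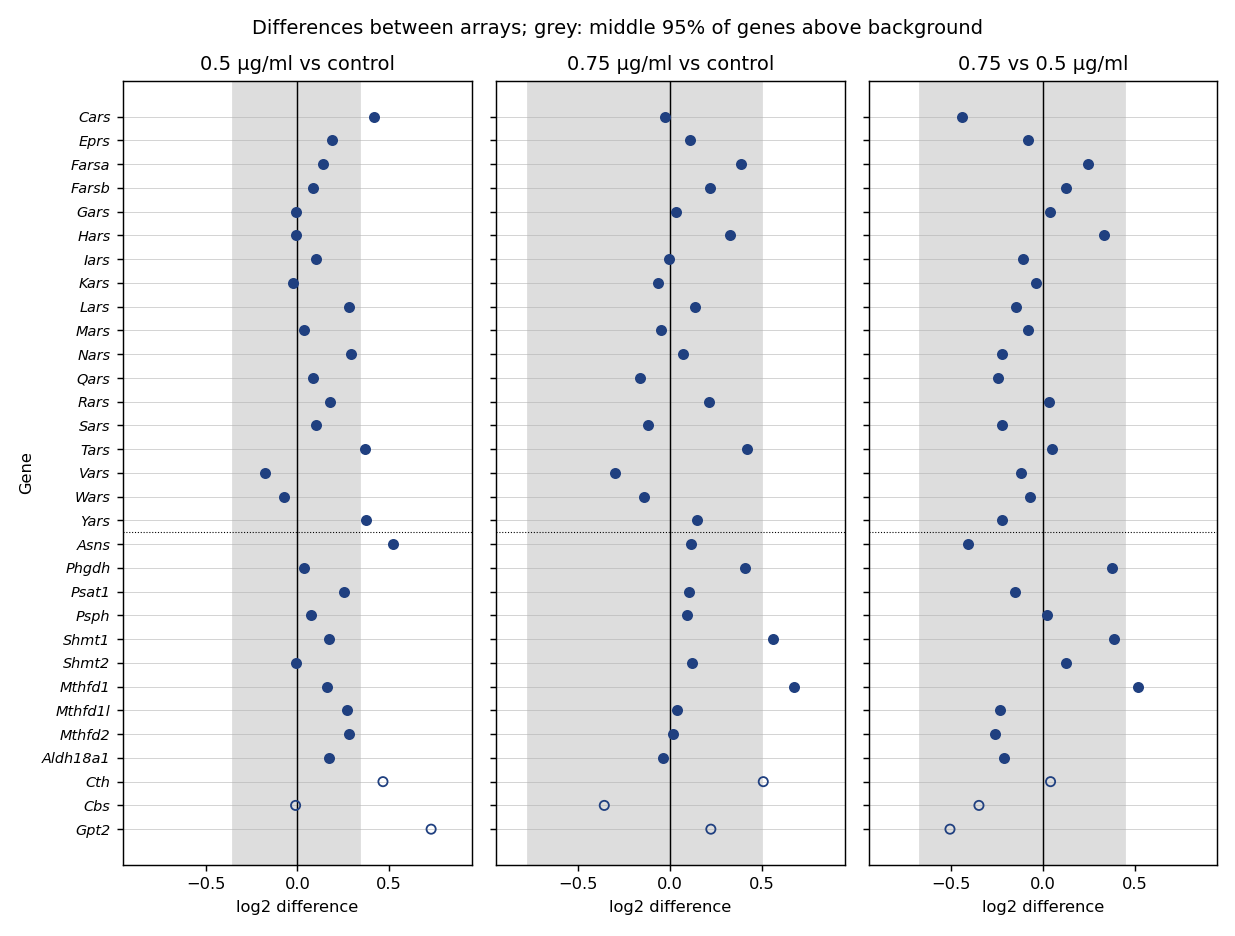
Log2 difference (horizontal axis) of each of the 31 measured members in the 3 comparisons, with synthetases above the dotted line, open circles for the 3 genes under background on every array, and grey bands for the middle 95% of all genes above background. Of the filled circles, Cars, Tars, Yars and Asns pass the band at 0.5 µg/ml, Shmt1 and Mthfd1 at 0.75 µg/ml, and Mthfd1 between the doses; of the open circles, Gpt2 and Cth pass it at 0.5 µg/ml and Cth at 0.75 µg/ml.

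Genes of neighbouring steps were read from fixed lists, whose counts stand beside the 53.6% and 50.5% of all genes above background that were above the control at the lower and the higher dose. Of 16 measured mitochondrial synthetase genes, 7 were above the control at the lower dose and 8 at the higher (medians -0.01 at both). Of the 11 with a mean level above background, 5 were above the control at each dose (medians -0.03 and -0.04). The most different of them at 0.75 µg/ml were Vars2 (-0.48), Fars2 (-0.43) and Mars2 (0.40). Of 18 other amino acid and folate enzymes, 9 were above the control at 0.5 µg/ml (median 0.00) and 11 at 0.75 µg/ml (median 0.09). Among the 11 of this list with a mean level above background, 6 and 9 were above the control, with medians of 0.01 and 0.11. Gcsh, a subunit of the glycine cleavage system, was at 319 at 0.75 µg/ml against 224 in the control, and Bcat1, which transfers the amino group of branched-chain amino acids, at 792 against 599. Asl, the argininosuccinate lyase gene, was at 152 against 215.

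Among 15 measured regulators around ATF4, 8 were above the control at the lower dose and 4 at the higher, with medians of 0.04 and -0.05. Over all 15 the differences ran from -0.31 to 0.55 at 0.5 µg/ml and from -0.65 to 0.67 at 0.75 µg/ml. Of the 11 with a mean level above background, 6 and 2 were above the control, with medians of 0.04 and -0.16. The highest of these 11 was 0.22 at 0.5 µg/ml and 0.67 at 0.75 µg/ml. Atf4 itself was at 1438 in the control, 1627 with 0.5 µg/ml and 1575 with 0.75 µg/ml. The ATF4 target genes Trib3 and Ddit3 differed from the control by 0.04 and -0.12 at 0.5 µg/ml and by -0.03 and -0.22 at 0.75 µg/ml. For Asns the differences at the 2 doses were 0.52 and 0.11, and a link of any of these genes to ATF4 was not tested. A second and dimmer probe set of Ddit3 went the other way from the one used, at 91.8 in the control, 127 with 0.5 µg/ml and 133 with 0.75 µg/ml. At 0.75 µg/ml against the control Eif2ak4 was at 229 against 351, the mTOR inhibitor gene Ddit4 at 877 against 1376 and the leucine sensor gene Sesn2 at 235 against 148. Sesn2 (0.67) and Ddit4 (-0.65) thus differed more than Trib3 and Ddit3, which were named whatever their values. Myc, a regulator of growth genes in T cells, was at 5925 in the control, 5703 with 0.5 µg/ml and 5306 with 0.75 µg/ml. The 11 amino acid transporter genes had medians of 0.02 and 0.05 at the 2 doses, and the most different of them at 0.75 µg/ml went both ways. Slc43a1, a transporter of large neutral amino acids, was at 200.5 in the control, 182 with 0.5 µg/ml and 145 with 0.75 µg/ml. Slc38a1, which imports glutamine, was at 1917 in the control, 2121 with 0.5 µg/ml and 2325 with 0.75 µg/ml, and Slc7a5, which imports large neutral amino acids, at 2273 in the control, 2806 with 0.5 µg/ml and 2708 with 0.75 µg/ml.

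The sterol synthesis genes show the scale of the change that the same arrays recorded elsewhere. Their 15 measured members had medians of -0.53 at 0.5 µg/ml and -1.96 at 0.75 µg/ml. Hmgcs1, which makes HMG-CoA, was at 1848 in the control, 1295 with 0.5 µg/ml and 285 with 0.75 µg/ml, and Sqle, the squalene epoxidase gene, was at least 4.74-fold lower at 0.75 µg/ml than in the control when its dim value was raised to the background level.

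**Figure D5:**
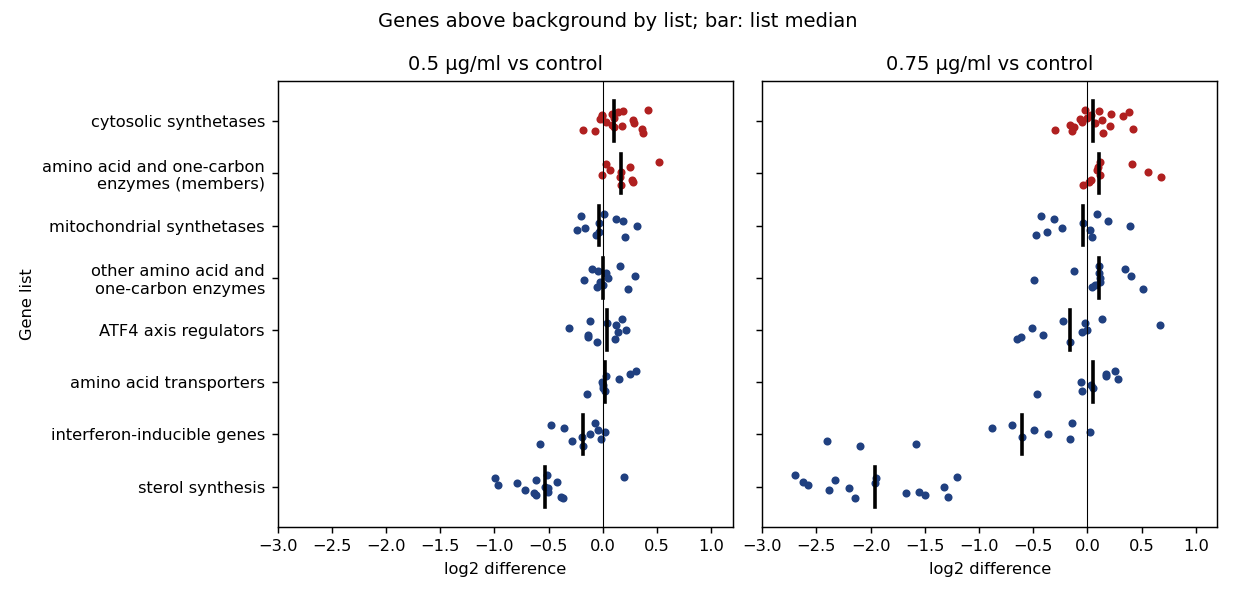
Log2 differences (horizontal axis) of genes with a mean level above background, by list (rows), at 0.5 µg/ml and at 0.75 µg/ml against the control, with points for genes and black bars for list medians. The 2 upper rows in red are the synthetases (medians 0.10 and 0.05) and the amino acid and folate enzymes (0.17 and 0.11), close to 0 beside sterol synthesis in the lowest row (-0.53 and -1.96).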

How the data were processed

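The data are 3 expression arrays of mouse CD8 T cells, 1 per condition. Per the labels' protocols, RNA was extracted with Trizol and biotin-labelled by a whole-transcript sense method. Each deposited value is a linear intensity of a probe set, as the values show. How the authors corrected, normalized and summarised the arrays is not given in the sources used here. Median intensities were 32.5 (control), 32.4 (0.5 µg/ml) and 33.0 (0.75 µg/ml).

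Of 28846 probe sets, 22206 were transcripts, of which 19572 had 1 gene symbol, 0 several and 2634 none. For genes with several probe sets the brightest was used, and 0 members had several. Intensities were converted to log2, and 0 values lay under the floor of 1. With 1 array per group no test was made. Counts used at least 2-fold, with 1.5-fold as a second threshold. All members were named, with up to 6 genes of each neighbouring list, taken in order of their difference at 0.75 µg/ml among genes above background on at least 1 array, and 9 fixed genes, such as Atf4 and Sqle. The members, lists and motifs were chosen with earlier results of these data known. The counting was tested on simulated data. Python 3.11.15, numpy 2.4.6, pandas 2.3.3 and matplotlib 3.10.9 were used.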

Additional observations from a re-analysis of the deposited data

How the results depend on the processing

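The median member difference was 0.16 at 0.5 µg/ml, 0.10 at 0.75 µg/ml and -0.08 between the doses, and under 7 alternatives it ranged from 0.10 to 0.16, from 0.07 to 0.10 and from -0.10 to -0.07. The alternatives were a pseudocount of 16, quantile normalization, centring on the positive controls, the mean over probe sets, a level filter at the median of all probe sets, raising values under background to it, and, chosen after seeing the data, only members with a mean level above background. Raising dim values gave the 0.10 at 0.5 µg/ml, since Cth and Gpt2 then have no difference. At 1.5-fold in place of 2-fold, 1 member was higher at 0.5 µg/ml (Gpt2) and 1 at 0.75 µg/ml (Mthfd1). The sign changed for Cbs at 0.5 µg/ml under quantile normalization, for Mthfd2 at 0.75 µg/ml under quantile normalization and centring, and for Gars at 0.75 µg/ml under centring, each within 0.05 of 0. No paired analysis was possible because each condition had 1 array, and no array could be left out for the same reason. Intensities under 102 cannot be told from the negative controls.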
